A study of Mus musculus with 10 samples.

Results

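Cultures of the PyMt cell line, grown from mammary tumors of mice that carry the polyoma middle T oncogene, were compared after exposure to test CD4+ T cell supernatant and to control CD4+ T cell supernatant tagged Control. Of the 10 RNA-seq libraries in the series, 8 were used: 6 test libraries in 3 label sets of 2 (Test1, Test2 and Test3) and the 2 libraries Control-1 and Control-2. The 2 libraries tagged Blank, which are also titled as control supernatant, were left out, and the labels do not say how they differ from Control. Test T cells came from tumors and draining lymph nodes of Tslp-PyMttg mice, in which the K14 promoter drives Tslp, while the labels give 2 donors for control supernatant, Tslp-PyMttg TslprKO and PyMttg, without saying which donor gave the Control-tagged libraries. The study describes the control of its RNA-seq as TslprKO supernatant and does not separate the tags. The cells of all 8 cultures came from 1 line, were kept in low-adherence plates, and had insulin and serum in the medium. The T cells of both arms were, by the methods, stimulated with anti-CD3 and anti-CD28 antibodies in medium that held TSLP and IL-2, and the donors were on the C57BL/6 background. Nothing in the labels says that replicates came from separate cultures or that Test1 to Test3 came from separate animals. What the set number stands for is not given either. The p-values therefore weigh a difference against the spread between these libraries, some of which may be technical. They do not extend to new cultures or animals.

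Activated CD4+ T cells release cytokines that epithelial tumor cells can sense through cell surface receptors. Tumor necrosis factor and interleukin-1 family ligands act through NF-kB, a transcription factor that is held in the cytoplasm by IkB proteins until it is released, and interferon-gamma acts through the JAK kinases. Interleukin-4 and interleukin-13 act through STAT6, and interleukin-6 family ligands through STAT3. The NF-kB arm is known for switching on chemokines, colony-stimulating factors, acute-phase proteins and the inducible nitric oxide synthase, as well as inhibitors that feed back on the same signal. A secreted mixture of this kind, with interleukin-6 and matrix metallopeptidases, is also a known feature of senescent cells.

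Values were FPKM, in which fragments are scaled for transcript length and library size, and a gene was tested where at least 2 of the 8 libraries had 1 FPKM or more, which left 11477 of 17171 genes. Differences are on the log2(FPKM + 1) scale, test minus Control-tagged, and therefore understate the change of low genes. A gene is called changed where the adjusted p of the limma fit was under 0.05. Of the 11477 genes, 33 rose in the test libraries (0.288% of genes tested) and 9 fell (0.0784%). Among these, 25 rose by at least 1 and 5 fell by at least 1 on the log2 scale. This fit treats the 6 test libraries as separate, although they come in 3 sets of 2. When sets entered as a random effect, 21 of the 42 kept their call, 19 higher and 2 lower, and with set means as the unit 3 did, Nos2, Csf3 and Snora19. An unadjusted p under 0.05 was reached by 1046 genes, 437 of them higher and 609 lower in test. In all 42 called genes the 6 test libraries lay on 1 side of both Control-tagged libraries. The exact permutation test over the 28 ways of choosing 2 of 8 libraries gave p = 0.0357 for each of them, two-sided. It is the smallest value that these 28 ways can give. It largely restates the lack of overlap and is not separate support for the calls. That test treats the 8 libraries as exchangeable, which libraries of 1 label set may not be. Across all genes tested, 523 (4.56%) had every test library above both Control-tagged libraries and 888 (7.74%) had every test library below both, so a lack of overlap by itself was common. Over all genes the median difference was -0.03, with 5152 genes above 0 and 6325 below 0.

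**Figure D1:**
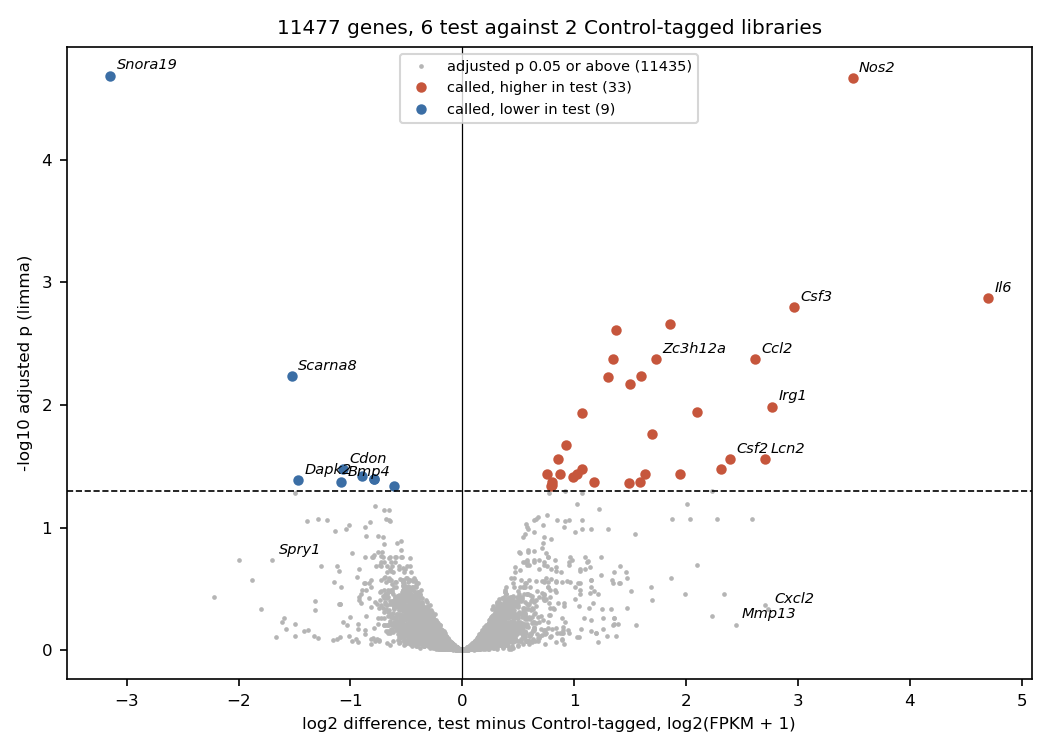
The x axis gives the log2 difference, test minus Control-tagged, on the log2(FPKM + 1) scale and the y axis the -log10 of the adjusted p from limma, with 1 point for each of 11477 genes and a dashed line at adjusted p = 0.05. Of the 42 genes above the line 33 lie right of 0 and 9 left of 0, with Il6 farthest to the right at 4.70 and Nos2 highest on the right. The place of Snora19 and Scarna8, which are listed at 0 in all 6 test libraries, and of Mir3470b, listed at 0 in both Control-tagged libraries, depends on the pseudocount.

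The 21 genes that lost their call in the random-effect fit had adjusted p values of 0.0596 to 0.143 by limma. They were Cxcl5, Slc11a2, Socs3, Nfkbiz, Cebpd, Gch1, Mreg, Spsb1, Serpina3h, P2ry6, Pdpn, Tnfrsf9, Timm10 and Mt2 among those that rose, and Dapk2, Cdon, Ctnnal1, Prss23, Bmp4, Asap1 and Mcam among those that fell. The calls also depended on having both Control-tagged libraries. Without Control-1, 8 genes were called, and without Control-2 only 2, Nos2 and Snora19, which were also the only 2 of the 42 called in every fit that left out 1 library. Snora19 is listed at 0 in all 6 test libraries and so has no spread among them, and its call with a lone Control-tagged library is no sign of stability. Of the 42 genes, 34 lost their call without Control-1, 40 without Control-2, 21 without Test1-1, 25 without Test1-2, 7 without Test2-1, 9 without Test2-2, 14 without Test3-1 and 19 without Test3-2. The sum of FPKM, values that are already scaled for library size, was 419709 to 487591 in the test libraries and 425808 to 425896 in the Control-tagged libraries, and 10829 to 11187 genes reached 1 FPKM in test against 10952 to 11067 in Control-tagged. An estimate of depth from the step between low FPKM values gave 11240000 to 15220000 reads in test and 12440000 to 13460000 in Control-tagged, from a match that was only partial.

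The epithelial keratins Krt8 and Krt18 were high in every library, with Krt8 at 375 to 986 FPKM and Krt18 at 730 to 1882 FPKM in test, against 966 and 992 FPKM for Krt8 and 1776 and 1779 FPKM for Krt18 in Control-tagged. The lowest values of both keratins were those of Test3-1 and Test3-2. Of 24 epithelial genes measured, 8 were below 1 FPKM in all 8 libraries. The 24 summed to 1500 to 3370 FPKM in test and 3170 to 3230 FPKM in Control-tagged. A list of 20 mesenchymal genes summed to more, 4860 to 6240 FPKM in test and 5910 to 6330 FPKM in Control-tagged. Of 21 leukocyte markers measured, 16 were below 1 FPKM in all 8 libraries, among them Cd8a, Lck, Itgam and Csf1r. The summed level of the 21 markers was 28.4 to 41.5 FPKM in test and 30.5 to 31.7 FPKM in Control-tagged, carried mainly by Cd14, Cd68, S100a8 and Cd3d. Cd3d, part of the T cell receptor complex, was at 2.25 to 16.7 FPKM in test with its highest value in Test3-1, against 2.21 and 4.87 FPKM in Control-tagged. Of 18 fibroblast and endothelial markers 16 were below 1 FPKM in all 8 libraries, with Flt1 and Eng as the exceptions. Ptprc, Adgre1 and Pdcd1 were not analysed here.

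To show where the called genes begin, the RefSeq promoters (GRCm38.p6, the release of the mm10 genome; 250 bases before to 50 bases after the transcript start) were searched on both strands for the NF-kB letters (GGGA, then 4 bases of any kind, then CC), the C/EBP letters TTGCNNAA and the STAT letters TTCNNNGAA. Promoters were matched for 22 of the 33 genes that rose, 26 promoters in all, and for 6 of the 9 that fell, 12 promoters in all. The NF-kB letters were in 10 of 26 promoters of genes that rose and in 6 of 12 of genes that fell, against 20.7% of all 32851 promoters. Prss23 alone has 7 of the 12 promoters of genes that fell, and counted by gene the letters were in at least 1 promoter of 10 of the 22 genes that rose and of 3 of the 6 that fell (Bmp4, Dapk2 and Prss23). The C/EBP letters were in 6 of 26 and 0 of 12, against 10.8% of all promoters, and the STAT letters were in 5 of 26 and, in Prss23, 1 of 12, against 8.3%. A match is a description of the letters and no evidence of binding. Promoters of 4 genes that rose are printed because they stand for the cytokine, acute-phase and antioxidant genes described next, with matched letters in capitals.
Il6, chr5:30012864-30013163, plus strand, with the C/EBP letters from position -128 and NF-kB letters on both strands that overlap each other from -44 and -43, and so run together in capitals:
Il6: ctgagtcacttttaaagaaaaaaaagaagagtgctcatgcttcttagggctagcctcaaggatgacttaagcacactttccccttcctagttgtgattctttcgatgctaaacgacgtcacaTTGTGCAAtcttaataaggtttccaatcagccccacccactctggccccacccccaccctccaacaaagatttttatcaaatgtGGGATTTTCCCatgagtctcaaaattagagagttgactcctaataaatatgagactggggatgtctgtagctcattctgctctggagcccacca
Lcn2, chr2:32387690-32387989, minus strand, with the C/EBP letters from -216:
Lcn2: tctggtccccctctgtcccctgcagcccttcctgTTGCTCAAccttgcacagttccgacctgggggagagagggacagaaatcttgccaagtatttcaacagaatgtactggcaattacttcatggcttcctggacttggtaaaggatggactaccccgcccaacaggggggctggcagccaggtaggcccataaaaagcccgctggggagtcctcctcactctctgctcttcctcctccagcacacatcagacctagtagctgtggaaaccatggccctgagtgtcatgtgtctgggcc
Csf2, chr11:54249850-54250149, minus strand, with the C/EBP letters from -145 and the NF-kB letters from 23 after the start:
Csf2: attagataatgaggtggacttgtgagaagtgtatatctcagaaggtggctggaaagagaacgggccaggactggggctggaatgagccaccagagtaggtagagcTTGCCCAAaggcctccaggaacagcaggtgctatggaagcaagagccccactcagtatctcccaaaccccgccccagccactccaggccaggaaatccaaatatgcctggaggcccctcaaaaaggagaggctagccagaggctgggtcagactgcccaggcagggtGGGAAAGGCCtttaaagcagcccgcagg
Sod2, chr17:13007589-13007888, plus strand, with the STAT letters from -185:
Sod2: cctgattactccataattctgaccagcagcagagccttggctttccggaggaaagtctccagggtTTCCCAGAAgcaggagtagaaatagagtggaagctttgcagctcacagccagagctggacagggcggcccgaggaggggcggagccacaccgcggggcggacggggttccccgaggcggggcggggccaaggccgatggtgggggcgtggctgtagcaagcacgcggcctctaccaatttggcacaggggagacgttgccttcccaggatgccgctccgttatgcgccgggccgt

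Secreted cytokines were among the genes that rose, and Il6 had the largest difference of all called genes. Il6 (chr5:30013114-30019975), which encodes interleukin-6, was at 18 to 61.5 FPKM in the test libraries with a median of 42.7, against 0.36 and 0.52 FPKM in Control-tagged. The mean of test was 90.8 times that of Control-tagged, a ratio that rests on Control-tagged values below 1 FPKM. The difference was 4.70 ± 0.41 (SE) on the log2 scale with an adjusted p of 0.00135 by limma. With a pseudocount of 0.1 FPKM the difference was 6.09. Its lowest test values, 18 and 20.95 FPKM, were those of Test2, and these too lay above both Control-tagged libraries. Csf3 (chr11:98700183-98703631), which encodes the granulocyte colony-stimulating factor, was at 113 to 233 FPKM in test with a median of 180, against 26.5 and 16.7 FPKM in Control-tagged, a difference of 2.97 ± 0.27 (adjusted p 0.0016). Csf2 (chr11:54247270-54249899), the granulocyte-macrophage colony-stimulating factor, was at 10.5 to 27.3 FPKM in test with a median of 22.1, against 2.56 and 2.89 FPKM in Control-tagged (2.40 ± 0.36, adjusted p 0.0275). Csf2 was lower in the 2 Test2 libraries, at 10.65 and 10.51 FPKM, than in the other 4 test libraries. Lif (chr11:4257568-4272514), an interleukin-6 family ligand, was at 119 to 182 FPKM in test with a median of 146, against 58.0 and 44.8 FPKM in Control-tagged (1.5 ± 0.18, adjusted p 0.00673). These 4 were the members that rose among the 17 tested of a list of interleukins and colony-stimulating factors. No member fell, 14 lay above 0 and the median was 0.33. Over all genes tested, 0.288% rose, 0.0784% fell and 5152 of 11477 lay above 0, and these shares apply beside each list below. Il1a, which encodes interleukin-1 alpha, separated without passing the test: it was at 0.65 to 7.43 FPKM in test with a median of 2.5, against 0.15 and 0.12 FPKM in Control-tagged (1.69 ± 0.58, adjusted p 0.39), and its 2 highest values were those of Test3. Without Control-2 the adjusted p was 0.0575 for Il6, 0.0871 for Csf3, 0.252 for Lif and 0.45 for Csf2, and the call of Csf2 was also lost without Test1-1, Test1-2 or Test3-2.

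Chemokines formed the list with the highest median, 1.30 over 18 genes tested. Of these 3 rose (0.288% of all genes tested), none fell (0.0784%) and 16 lay above 0 (5152 of all 11477). Ccl2 (chr11:82035577-82037452), which attracts monocytes, was at 413 to 916 FPKM in test with a median of 541, against 103 and 81.35 FPKM in Control-tagged (2.62 ± 0.29, adjusted p 0.00423). Its neighbour Ccl7 (chr11:82045712-82047525), which also attracts monocytes, was at 33.4 to 94.05 FPKM in test with a median of 44.1, against 9.08 and 9.44 FPKM in Control-tagged (2.31 ± 0.36, adjusted p 0.0334). Cxcl5 (chr5:90759298-90761625), which attracts neutrophils, was at 2.46 to 6.54 FPKM in test with a median of 4.5, against 0.32 and 0.39 FPKM in Control-tagged (1.95 ± 0.32, adjusted p 0.0368). In all 3 genes Test3 held the highest and Test2 the lowest mean of the test sets. Cxcl9 and Cxcl10 are ligands of the receptor CXCR3 that interferon-gamma is known to induce. Both were above both Control-tagged libraries in every test library, as were 4.56% of all genes tested, without passing the test. Cxcl9 was at 137 to 329 FPKM in test with a median of 144, against 37.2 and 54.6 FPKM in Control-tagged (2.01 ± 0.37, adjusted p 0.0641). Cxcl10 was at 1286 to 3831 FPKM in test with a median of 1558, against 664 and 721 FPKM in Control-tagged (1.47 ± 0.41, adjusted p 0.257). For both genes the 2 highest libraries were those of Test3. Cxcl2, chosen after its values were seen, was listed at 0 in both Control-tagged libraries and at 0.81 to 33.6 FPKM in test, with 29.7 and 33.6 FPKM in Test3 (adjusted p 0.462). Without Control-2 the adjusted p was 0.195 for Ccl2, and 0.496 for Ccl7 and for Cxcl5, both of which also lost their call without either Test1 library.

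**Figure D2:**
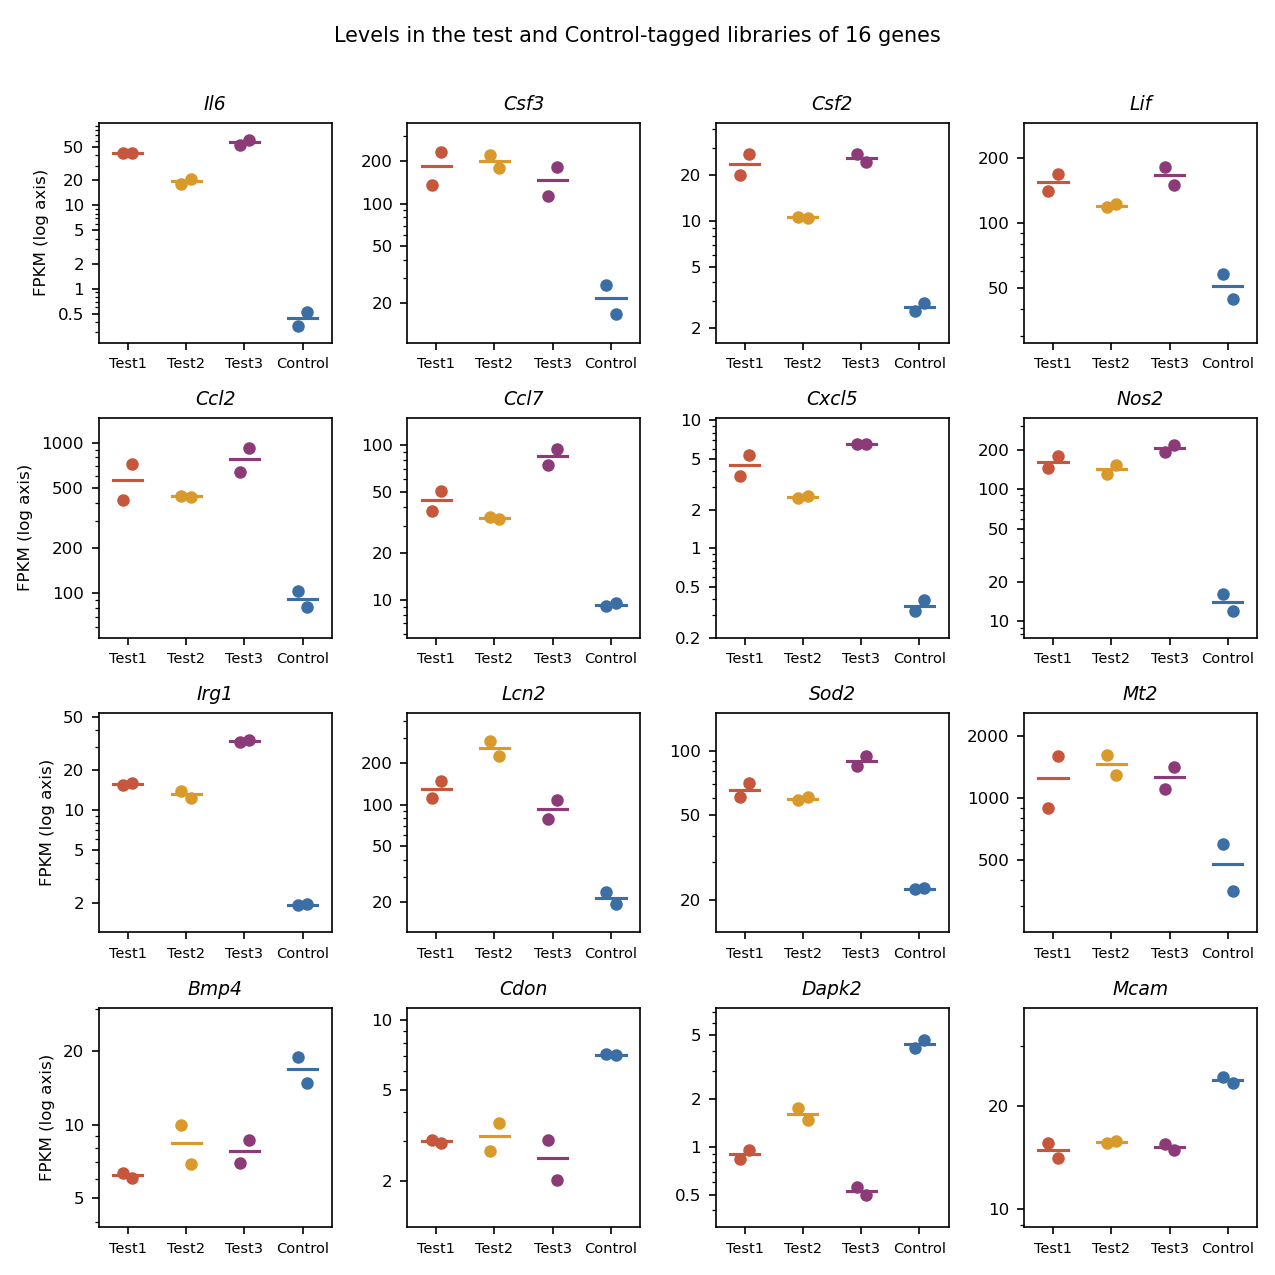
Each panel gives the FPKM of 1 gene on a log axis, with 2 libraries (points) and their mean (line) for Test1, Test2, Test3 and, at the right, Control. In the first 12 panels every test library lies above both Control libraries, and in Bmp4, Cdon, Dapk2 and Mcam every test library lies below both.

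Nos2 (chr11:78920787-78960226), the inducible nitric oxide synthase, which makes nitric oxide from arginine, had the second largest rise. It was at 132 to 218 FPKM in test with a median of 165, against 16.1 and 12.1 FPKM in Control-tagged, a mean 12 times as high (3.49 ± 0.19, adjusted p 2.15e-05). It was called in each of the 8 fits that left out 1 library, with a largest adjusted p of 0.00226. Gch1 (chr14:47153895-47189413), which starts the synthesis of the cofactor tetrahydrobiopterin that the synthase needs, was at 7.83 to 12.2 FPKM in test with a median of 10.2, against 4.76 and 4.06 FPKM in Control-tagged (1.02 ± 0.17, adjusted p 0.0368). Odc1 (chr12:17544808-17551502), which makes the polyamine putrescine from ornithine, was at 352 to 485 FPKM in test with a median of 416, against 196 and 202 FPKM in Control-tagged (1.07 ± 0.14, adjusted p 0.0117). Slc7a2, which carries arginine into the cell, was at 22.75 to 115 FPKM in test with a median of 62.1, against 8.58 and 8.53 FPKM in Control-tagged (2.59 ± 0.51, adjusted p 0.0852), and its lowest test values were those of Test2. These 4 genes belong to a list of 19 tested genes of nitric oxide, arginine and polyamine metabolism with a median of 0.14. In it 3 rose (0.288% of all genes tested) and none fell (0.0784%). Irg1 (chr14:103047012-103056573), whose product makes itaconate from cis-aconitate in the mitochondrion and is best known from macrophages, was at 12.35 to 33.75 FPKM in test with a median of 15.68, against 1.91 and 1.96 FPKM in Control-tagged (2.77 ± 0.36, adjusted p 0.0103). The 4 libraries of Test1 and Test2 lay between 12.35 and 15.94 FPKM, and the 2 of Test3 at 32.29 and 33.75 FPKM. Without Control-2 the adjusted p was 0.252 for Irg1 and 0.574 for Gch1, and without Control-1 it was 0.255 for Odc1. Gch1 also lost its call without Test1-1, Test1-2, Test2-1 or Test3-2.

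Acute-phase and complement genes had a median of 0.95 over 12 genes tested. Of these 4 rose (0.288% of all genes tested), none fell (0.0784%) and 11 lay above 0 (5152 of all 11477). Lcn2 (chr2:32384637-32387739), a secreted protein that withholds iron from bacteria, was at 79.1 to 287 FPKM in test with a median of 130, against 23.6 and 19.2 FPKM in Control-tagged (2.71 ± 0.41, adjusted p 0.0275). Its highest values were in Test2 and its lowest in Test3, the reverse of the order of Il6, Csf2 and Lif but the same as that of Csf3. Steap4 (chr5:7960472-7982213), a metalloreductase of iron and copper, was at 4 to 9.94 FPKM in test with a median of 7.26, against 0.70 and 0.93 FPKM in Control-tagged (2.10 ± 0.28, adjusted p 0.0113). C3 (chr17:57203967-57228136), the central complement component, was at 16.9 to 25.7 FPKM in test with a median of 19.1, against 7.67 and 7.15 FPKM in Control-tagged (1.30 ± 0.16, adjusted p 0.00596). Serpina3g (chr12:104236147-104241939), a serine protease inhibitor, was at 110 to 144 FPKM in test with a median of 120, against 49.8 and 44.3 FPKM in Control-tagged (1.38 ± 0.14, adjusted p 0.00243). Its near copy Serpina3h, outside the rule for named genes and chosen after its values were seen, was at 1.72 to 2.40 FPKM in test against 0.48 and 0.70 FPKM in Control-tagged (0.99 ± 0.16, adjusted p 0.0384). Serpina3 genes lie side by side and are much alike in sequence, so their levels may share reads and are uncertain one by one. Slc11a2, an iron transporter that was also chosen after its values were seen, was at 27.85 to 31.93 FPKM in test against 18.58 and 14.05 FPKM in Control-tagged (0.85 ± 0.13, adjusted p 0.0274). Without Control-2 the adjusted p was 0.133 for Serpina3g, 0.231 for C3, 0.496 for Lcn2 and 0.519 for Slc11a2, without Control-1 it was 0.255 for Steap4 and 0.509 for Serpina3h, and the calls of Lcn2, Slc11a2 and Serpina3h were also lost without Test1-2.

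Of 26 tested genes that respond to NF-kB, 3 rose (0.288% of all genes tested) and none fell (0.0784%). Over the list 25 lay above 0 (5152 of all 11477) with a median of 0.70. With each test set compared by itself with the Control-tagged libraries, 9 of the 26 were higher for Test1 (1.06% of all genes tested), 4 for Test2 (0.288%) and 18 for Test3 (3.01%). Zc3h12a (chr4:125118414-125127881), an RNase that degrades cytokine transcripts, Il6 among them, was at 40.4 to 61.05 FPKM in test with a median of 50.55, against 17.35 and 11.64 FPKM in Control-tagged (1.73 ± 0.19, adjusted p 0.00423). Nfkbiz (chr16:55811375-55838954), a nuclear IkB protein, was at 51.4 to 79.7 FPKM in test with a median of 61.7, against 31.2 and 27.6 FPKM in Control-tagged (1.07 ± 0.17, adjusted p 0.0334). Sod2 (chr17:13007839-13018119), the mitochondrial superoxide dismutase, was at 58.46 to 94.43 FPKM in test with a median of 65.7, against 22.5 and 22.6 FPKM in Control-tagged (1.6 ± 0.19, adjusted p 0.00579). Nfkbia, which encodes the inhibitor IkB alpha, was at 63.7 to 277 FPKM in test with a median of 116, against 33.1 and 37.2 FPKM in Control-tagged, and did not pass the test (1.87 ± 0.52, adjusted p 0.257). The 2 Test3 libraries stood at 277 and 274 FPKM and the 2 Test2 libraries at 76.3 and 63.7 FPKM. Ptgs2, the inducible cyclooxygenase that starts prostaglandin synthesis and a gene chosen after its values were seen, was at 335 to 714 FPKM in test with a median of 638.5, against 208 and 245 FPKM in Control-tagged (1.30 ± 0.28, adjusted p 0.103). Without Control-2 the adjusted p was 0.195 for Zc3h12a and for Sod2, and 0.545 for Nfkbiz, which also lost its call without Test1-1, Test1-2 or Test3-1.

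Socs3 (chr11:117966079-117970336), which inhibits JAK signaling below the interleukin-6 family receptors, was at 60.4 to 119 FPKM in test with a median of 80.5, against 31.6 and 22.3 FPKM in Control-tagged (1.59 ± 0.27, adjusted p 0.0421). Cebpd (chr16:15887286-15889545), a C/EBP transcription factor of the acute-phase response, was at 23.1 to 48.5 FPKM in test with a median of 39.6, against 14.8 and 8.69 FPKM in Control-tagged (1.64 ± 0.26, adjusted p 0.0368). Control-1 was the higher of the Control-tagged libraries for both genes. The calls of both were lost in the random-effect fit and in 6 of the 8 fits that left out 1 library, with adjusted p values of up to 0.656 for Socs3 and 0.606 for Cebpd, both without Control-2. Socs3 was the member that rose in a list of 43 tested interferon response genes, where none fell, 24 lay above 0 and the median was 0.04. By set, 3 of the 43 were higher for Test1 (1.06% of all genes tested), 0 for Test2 (0.288%) and 10 for Test3 (3.01%). For Test3, 1 was also lower (2.87% of all genes tested), and the list medians by set were -0.01, 0.13 and 0.31. Irf1, an interferon-induced transcription factor, was at 234 to 319 FPKM in test with a median of 267, against 228 and 230 FPKM in Control-tagged (0.24 ± 0.15, adjusted p 0.687). Cd274, which encodes the ligand PD-L1, was at 17.1 to 36.5 FPKM in test with a median of 19.2, against 14.9 and 13.6 FPKM in Control-tagged (0.60 ± 0.26, adjusted p 0.54). Gbp2, an interferon-induced GTPase, was at 1836.5 to 2180 FPKM in test, against 1518 and 1648 FPKM in Control-tagged (0.33 ± 0.14, adjusted p 0.506), and so was high in both arms. In 32 of the 43 genes the test and Control-tagged libraries overlapped, as they did in 10066 of all 11477 genes tested. Every test library lay above both Control-tagged libraries in 9 of the 43, against 4.56% of all genes tested. Every test library lay below both in 2, against 7.74%.

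Antigen presentation by MHC class I showed no call: 16 genes were tested, none rose or fell, the median was 0.00, and the differences ran from -0.20 to 0.24. H2-K1, a class I heavy chain, was at 152 to 195 FPKM in test with a median of 168.5, against 167 and 151 FPKM in Control-tagged (0.12 ± 0.13, adjusted p 0.861). Of MHC class II only 3 genes passed the filter, and none exceeded 4.04 FPKM in any of the 8 libraries. Ciita, the master activator of class II genes, was at 0.39 to 2.07 FPKM in test, against 4.04 and 3.37 FPKM in Control-tagged (-1.12 ± 0.29, adjusted p 0.206).

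Receptors for the cytokines of activated T cells had no call among 27 genes tested, a median of 0.12 and 20 genes above 0. Tnfrsf1a, a receptor of tumor necrosis factor, was at 43.9 to 94.6 FPKM in test with a median of 64.4, against 78.8 and 57.5 FPKM in Control-tagged (-0.04 ± 0.27, adjusted p 0.982). Ifngr1, a chain of the interferon-gamma receptor, was at 12.7 to 16.6 FPKM in test with a median of 14, against 15.5 and 17.7 FPKM in Control-tagged (-0.21 ± 0.13, adjusted p 0.696). Both receptor transcripts were therefore present in every library, and the test and Control-tagged values overlapped. The median of 7 tested genes of interleukin-4 and interleukin-13 signaling was 0.97, with none called, and 6 of them had every test library above both Control-tagged libraries, as did 4.56% of all genes tested. Il13ra2, a decoy receptor for interleukin-13, was at 23.48 to 80.25 FPKM in test with a median of 45.45, against 9.21 and 10.2 FPKM in Control-tagged (2.04 ± 0.40, adjusted p 0.0852). Il4ra, the chain shared by the interleukin-4 and interleukin-13 receptors, was at 11.4 to 19.1 FPKM in test with a median of 14.4, against 8.68 and 5.61 FPKM in Control-tagged (0.97 ± 0.23, adjusted p 0.174). Il1rl1, the receptor of interleukin-33 and a gene chosen after its values were seen, was at 28.6 to 90.59 FPKM in test with a median of 83.3, against 11.8 and 11.9 FPKM in Control-tagged (2.27 ± 0.45, adjusted p 0.0852). In Il13ra2 and Il1rl1 the 2 Test2 libraries lay well below the other 4, and still above both Control-tagged libraries.

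Further genes that rose came from several functions. Igfbp3 (chr11:7206086-7215498), a secreted binding protein of insulin-like growth factors, was at 8.76 to 14.5 FPKM in test with a median of 10.3, against 2.26 and 2.16 FPKM in Control-tagged (1.86 ± 0.18, adjusted p 0.00217). It was the member that rose in a list of 24 tested growth factors and receptors, where none fell and the median was -0.16. Mt2 (chr8:94172618-94173567), a metallothionein that binds zinc and copper, had the highest test level of the called genes, 900 to 1633 FPKM with a median of 1364, against 600 and 355 FPKM in Control-tagged (1.49 ± 0.26, adjusted p 0.0434). Upp1 (chr11:9118008-9136170), which splits uridine into uracil and ribose phosphate, was at 54.9 to 74.6 FPKM in test with a median of 67.5, against 28.6 and 22.6 FPKM in Control-tagged (1.35 ± 0.15, adjusted p 0.00423). Pdpn (chr4:143267409-143299564), podoplanin, a membrane mucin, was at 235 to 318 FPKM in test with a median of 305, against 163 and 170 FPKM in Control-tagged (0.80 ± 0.14, adjusted p 0.0452). Mir3470b was listed at 0 in both Control-tagged libraries and at 1.19 to 3.16 FPKM in the test libraries with a median of 2.495 (adjusted p 0.0172), so no fold was given. The row counts reads over the hairpin gene and not the mature miRNA, which is printed with its seed (bases 2 to 8) in capitals, at chr16:44013885-44013905 on the plus strand of GRCm38.p6:
mmu-miR-3470b: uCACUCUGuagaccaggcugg
The other 6 genes that rose were outside the rule for named genes and were chosen after their values were seen: the nucleotide receptor gene P2ry6, at 1.06 to 2.09 FPKM in test against 0.12 and 0 FPKM in Control-tagged, and Chst11, Spsb1, Tnfrsf9, Timm10 and Mreg, with differences of 0.76 to 0.93. Without Control-2 the adjusted p was 0.0969 for Igfbp3, 0.195 for Upp1, 0.349 for Mir3470b and 0.689 for Mt2, and without Control-1 it was 0.565 for Pdpn. Mir3470b, Mt2 and Pdpn also lost their calls without Test1-2. Of the 33 genes that rose 9 lie on chromosome 11 (27.3%, against 8.20% of genes tested), namely Lif, Ccl2, Ccl7, Upp1, Socs3, Csf3, Nos2, Csf2 and Igfbp3.

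The 9 genes that fell were fewer and mostly smaller in effect. Dapk2 (chr9:66158226-66272242), a calmodulin-dependent kinase linked to cell death, was at 0.50 to 1.74 FPKM in test with a median of 0.895, against 4.19 and 4.66 FPKM in Control-tagged (-1.47 ± 0.25, adjusted p 0.041). Bmp4 (chr14:46383525-46390669), a bone morphogenetic protein, was at 6.06 to 9.97 FPKM in test with a median of 6.945, against 18.9 and 14.8 FPKM in Control-tagged (-1.08 ± 0.19, adjusted p 0.0424). Cdon (chr9:35421528-35507652), a co-receptor of hedgehog ligands, was at 2.01 to 3.58 FPKM in test with a median of 2.98, against 7.10 and 7.04 FPKM in Control-tagged (-1.07 ± 0.17, adjusted p 0.0334). These 3 were the largest falls with a measurable level in test. Ctnnal1, a catenin-like protein, was at 7.79 to 10.6 FPKM in test against 16.7 and 19.7 FPKM in Control-tagged (-0.90 ± 0.15, adjusted p 0.0381). Prss23, a serine protease, was at 18.4 to 25.6 FPKM in test against 39.4 and 38.8 FPKM in Control-tagged (-0.79 ± 0.13, adjusted p 0.0403). Asap1, which acts on Arf GTPases, was at 44.7 to 59.4 FPKM in test against 82.8 and 86.2 FPKM in Control-tagged (-0.79 ± 0.13, adjusted p 0.0403). Mcam, a cell adhesion molecule, was at 14.2 to 15.8 FPKM in test against 24.3 and 23.4 FPKM in Control-tagged (-0.61 ± 0.11, adjusted p 0.0455). Snora19 and Scarna8, a small nucleolar and a small Cajal body RNA, were listed at 0 in all 6 test libraries, against 7.69 and 8 FPKM for Snora19 and 1.84 and 1.91 FPKM for Scarna8 in Control-tagged (adjusted p 2.07e-05 and 0.00579). Such short RNAs give few fragments, and no fold was given for them. The 8 genes other than Snora19 lost their calls without Control-1 and without Control-2. The falls also depended on test libraries: 2 genes were called lower without Test1-1, 2 without Test1-2, 4 without Test3-1 and 3 without Test3-2. Without Test2-1 or Test2-2, 10 were called lower. Bmp4 and Asap1 lost their calls without any 1 of the Test1 or Test3 libraries.

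Bmp4 was the member that fell among 28 tested genes of TGF-beta and BMP signaling, where none rose, 20 lay below 0 and the median was -0.15. Tgfb3, a TGF-beta ligand, was at 6.12 to 13.3 FPKM in test with a median of 10.1, against 23.35 and 25.44 FPKM in Control-tagged (-1.29 ± 0.25, adjusted p 0.0847). Among genes of growth factor signaling that did not pass, Pdgfrb, which encodes a PDGF receptor, was at 5.01 to 10.5 FPKM in test with a median of 6.545, against 17.88 and 16.85 FPKM in Control-tagged (-1.21 ± 0.24, adjusted p 0.087). Vegfa, the main angiogenic growth factor, was at 52.9 to 77.1 FPKM in test with a median of 63.7, against 35.5 and 40.4 FPKM in Control-tagged (0.76 ± 0.15, adjusted p 0.0794). Of 18 tested ERK feedback genes none was called and the median was -0.01. Spry1, an inhibitor of that pathway, was at 1.68 to 6.81 FPKM in test with a median of 3.355, against 13.78 and 13.25 FPKM in Control-tagged (-1.70 ± 0.42, adjusted p 0.183). None of these 4 single genes had overlapping groups, and none reached the threshold. Such separation was common: 4.56% of all genes tested had every test library above both Control-tagged libraries, and 7.74% had every one below both.

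**Figure D3:**
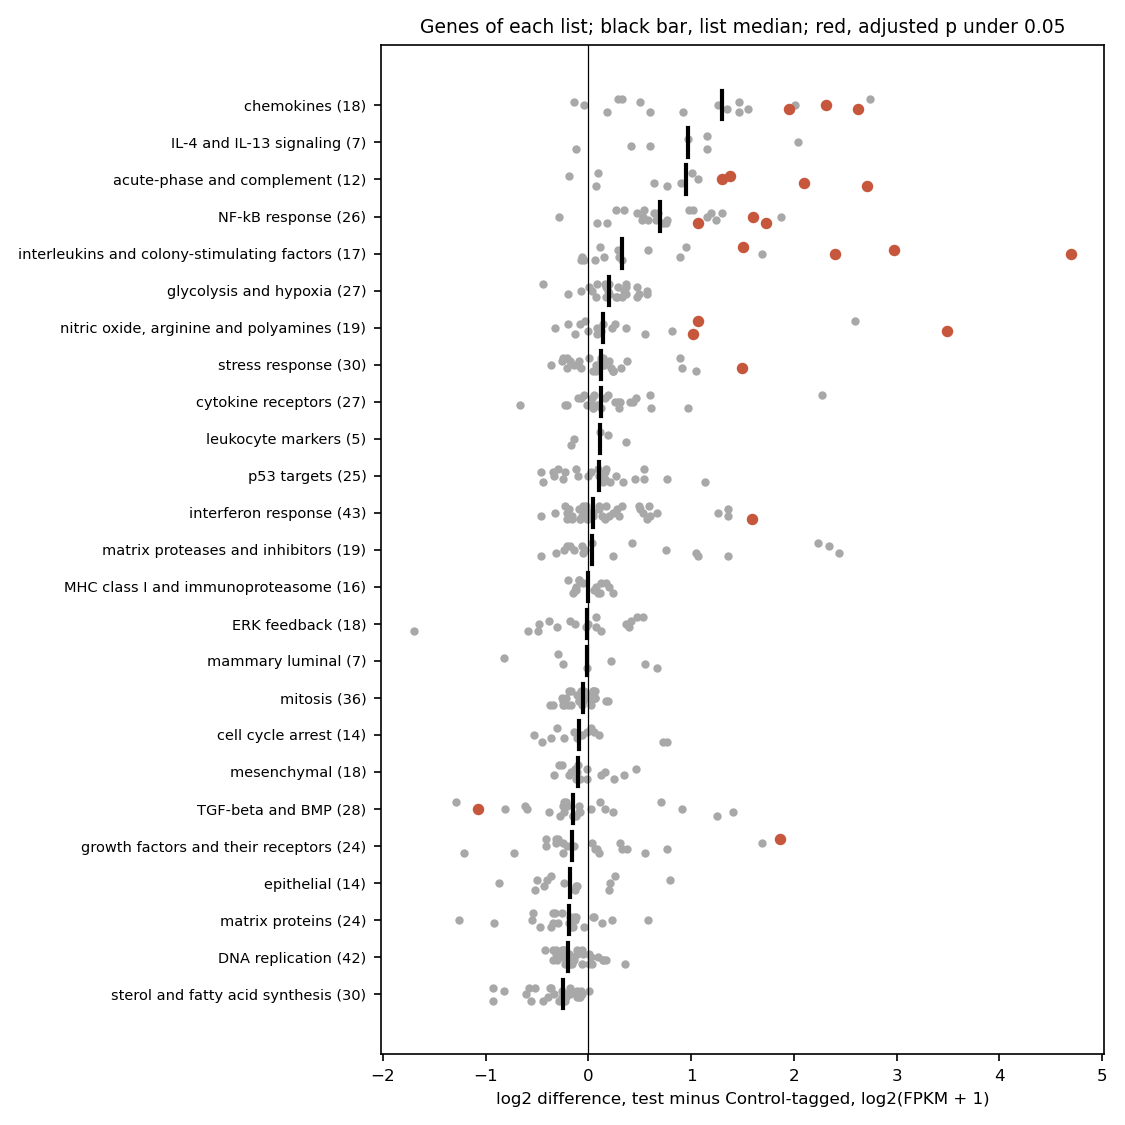
The x axis gives the log2 difference, test minus Control-tagged, on the log2(FPKM + 1) scale, with 1 point for each tested gene of 25 lists, the number tested in brackets, a black bar at the list median and red points for called genes. Lists with fewer than 5 genes tested, among them MHC class II with a median of -0.84 over 3 genes, are not drawn. Of the lists drawn, chemokines lie farthest to the right with a median of 1.30, and the sterol list lies lowest with a median of -0.25.

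Proliferation genes showed no call. Of 42 tested DNA replication genes none rose or fell, 33 lay below 0 and the median was -0.20, with the differences between -0.42 and 0.36. Mcm2, a subunit of the replicative helicase, was at 37.01 to 44.97 FPKM in test with a median of 40.8, against 55.2 and 54.2 FPKM in Control-tagged (-0.42 ± 0.12, adjusted p 0.303). Of 36 tested mitosis genes none was called and the median was -0.05. Mki67, which encodes the proliferation marker Ki67, was at 56.9 to 127 FPKM in test with a median of 88.6, against 111 and 117 FPKM in Control-tagged (-0.37 ± 0.25, adjusted p 0.726), and the groups overlapped because Test3-1 exceeded both. Of 14 tested arrest genes and 25 tested p53 targets none was called, with medians of -0.09 and 0.10. By set, 1 of the 25 p53 targets was higher for Test1 (1.06% of all genes tested), 0 for Test2 (0.288%) and 7 for Test3 (3.01%). The list medians by set were -0.08, 0.04 and 0.27. Cdkn1a, which encodes the cyclin-dependent kinase inhibitor p21, was at 49.8 to 94.6 FPKM in test with a median of 61.0, against 34.8 and 40.2 FPKM in Control-tagged (0.76 ± 0.22, adjusted p 0.277). All 6 test values of Cdkn1a lay above both Control-tagged values, as in 4.56% of all genes tested, with the highest in Test3.

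Of 19 tested matrix proteases and inhibitors none was called and the median was 0.03. By set, 6 of the 19 were higher for Test1 (1.06% of all genes tested), 0 for Test2 (0.288%) and 9 for Test3 (3.01%). Mmp13, a collagenase, was at 48.6 and 48.7 FPKM in Test3 but at 5.57 and 6.21 FPKM in Test1 and 0.63 and 0.89 FPKM in Test2, against 0.57 and 0.53 FPKM in Control-tagged (2.44 ± 1.24, adjusted p 0.616). Mmp3, a stromelysin, was at 9.16 to 59.7 FPKM in test with a median of 16.9, against 6.48 and 8.22 FPKM in Control-tagged (1.36 ± 0.61, adjusted p 0.547). Mmp10, another stromelysin, was at 5.01 to 76.6 FPKM in test with a median of 13.2, against 1.85 and 4.58 FPKM in Control-tagged (2.23 ± 0.95, adjusted p 0.524). In these 3 genes every test library was above both Control-tagged libraries, as in 4.56% of all genes tested. Test2 was above them only by a small margin, and the standard errors were 0.61 to 1.24 on the log2 scale. Timp1, which inhibits these enzymes, was at 426 to 1045 FPKM in test with a median of 588, against 327 and 263 FPKM in Control-tagged (1.05 ± 0.28, adjusted p 0.224). Of 24 tested matrix proteins none was called, 19 lay below 0 and the median was -0.19, with Fn1, fibronectin, at 934 to 1479 FPKM in test with a median of 1293, against 1934 and 1553 FPKM in Control-tagged (-0.47 ± 0.19, adjusted p 0.483).

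Metabolic and stress lists had 1 call, Mt2 among 30 tested stress genes, where the median was 0.12. Atf3, a stress-induced transcription factor, was at 14.5 to 23.3 FPKM in test with a median of 17.9, against 8.75 and 9.22 FPKM in Control-tagged, and missed the threshold narrowly (0.91 ± 0.16, adjusted p 0.0501). Of 27 tested genes of glycolysis and hypoxia 24 lay above 0 with a median of 0.20 and no call. Hk2, a hexokinase, was at 48.1 to 60.7 FPKM in test with a median of 51.5, against 38.5 and 37.65 FPKM in Control-tagged (0.47 ± 0.12, adjusted p 0.208). Of 30 tested genes of sterol and fatty acid synthesis none was called, 29 lay below 0 and the median was -0.25. The difference lay in Test3: set against Control-tagged, the list had a median of -0.03 for Test1, 0.17 for Test2 and -0.97 for Test3. For Test3, 18 of the 30 were lower, against 2.87% of all genes tested. Hmgcs1, an early enzyme of cholesterol synthesis, was at 32.3 and 27.7 FPKM in Test3 but at 126 and 121 FPKM in Test1 and 139 and 159 FPKM in Test2, against 111 and 133 FPKM in Control-tagged (-0.56 ± 0.64, adjusted p 0.875). Of the 6 test libraries, only those of Test3 lay below both Control-tagged ones for Hmgcs1.

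Each test set was also set against the same 2 Control-tagged libraries in a fit with the spread taken within sets. The 3 comparisons share these libraries, and the test libraries in them are those that gave the 42 calls, so their values are a description of how the called genes divide among sets. Test1 had 1.06% of genes higher and 0.471% lower, Test2 had 0.288% higher and 0.0174% lower, and Test3 had 3.01% higher and 2.87% lower. In Test1 30 of the 33 genes that rose passed and 9 of the 9 that fell. In Test2 the counts were 21 and 2, and in Test3 they were 33 and 9. The median difference over the 33 and over the 9 genes was 1.42 and -1.02 for Test1, 1.37 and -0.93 for Test2, and 1.45 and -1.08 for Test3. Il6 differed from Control-tagged by 4.93 for Test1, 3.83 for Test2 and 5.35 for Test3, and Irg1 by 2.51, 2.27 and 3.53 in the same order. Lcn2 differed by 2.54 for Test1, 3.51 for Test2 and 2.06 for Test3. Upp1, at 1.37, 1.37 and 1.30, and Serpina3g, at 1.38, 1.34 and 1.41, were nearly level across the sets.

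The test sets were also compared with each other in the same fit. The Control-tagged libraries enter these comparisons through the shared estimate of the spread, and the 42 genes counted in them were chosen through Control. Against the mean of Test1 and Test2, 2.14% of genes were higher in Test3 and 1.72% lower, and of the 42 called genes 6 were higher (Il6, Irg1, Ccl7, Cxcl5, Csf2 and Sod2) and 1 lower (Lcn2). Against the mean of Test1 and Test3, 0.497% of genes were higher in Test2 and 0.653% lower, and of the 42 genes 1 was higher (Lcn2) and 5 lower (Il6, Csf2, Cxcl5, Ccl7 and Irg1). Whether the set number follows a donor, a supernatant or a culture is not given, and its part in these differences was not tested.

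**Figure D4:**
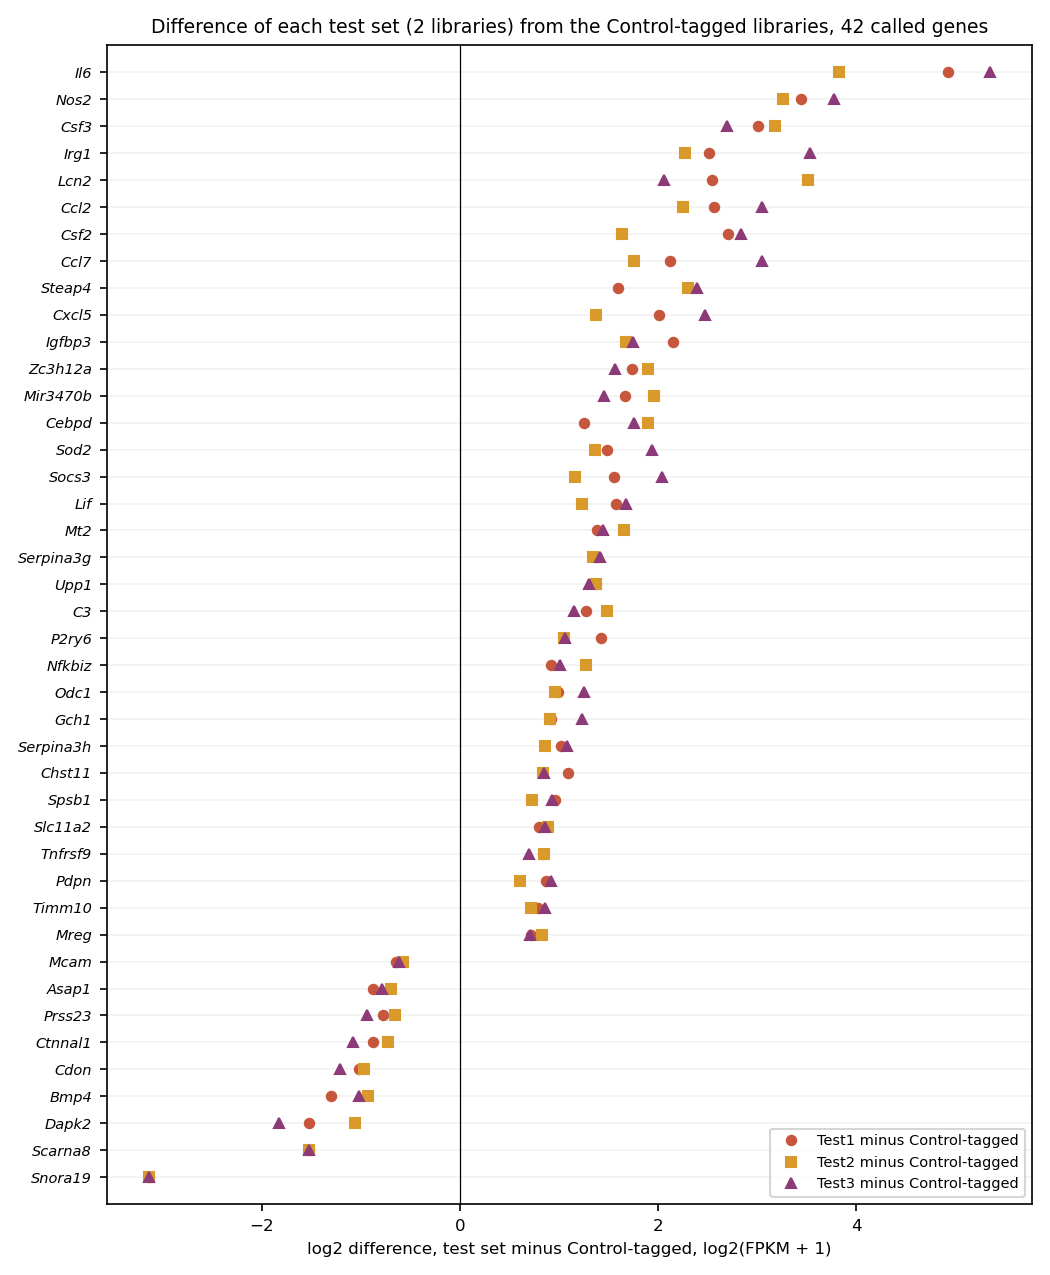
The x axis gives the log2 difference of each test set of 2 libraries from the 2 Control-tagged libraries on the log2(FPKM + 1) scale, with a circle for Test1, a square for Test2 and a triangle for Test3, for the 42 called genes on the y axis. Il6 runs from 3.83 in Test2 to 5.35 in Test3, and the 9 genes that fell lie left of 0 in each set.

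Just short of the threshold stood 2 genes with large differences that were chosen after their values were seen. Lilrb4, an inhibitory receptor known from myeloid cells, was at 14 to 44.8 FPKM in test with a median of 17.6, against 4.28 and 3.36 FPKM in Control-tagged (2.23 ± 0.40, adjusted p 0.0501). Galnt15, which begins O-linked glycans, was at 0.56 to 1.97 FPKM in test with a median of 0.875, against 5.40 and 4.13 FPKM in Control-tagged (-1.5 ± 0.27, adjusted p 0.0521). With an adjusted p under 0.1 as the threshold 56 genes were higher and 22 lower, and under 0.01 the counts were 11 and 2.

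**Figure D5:**
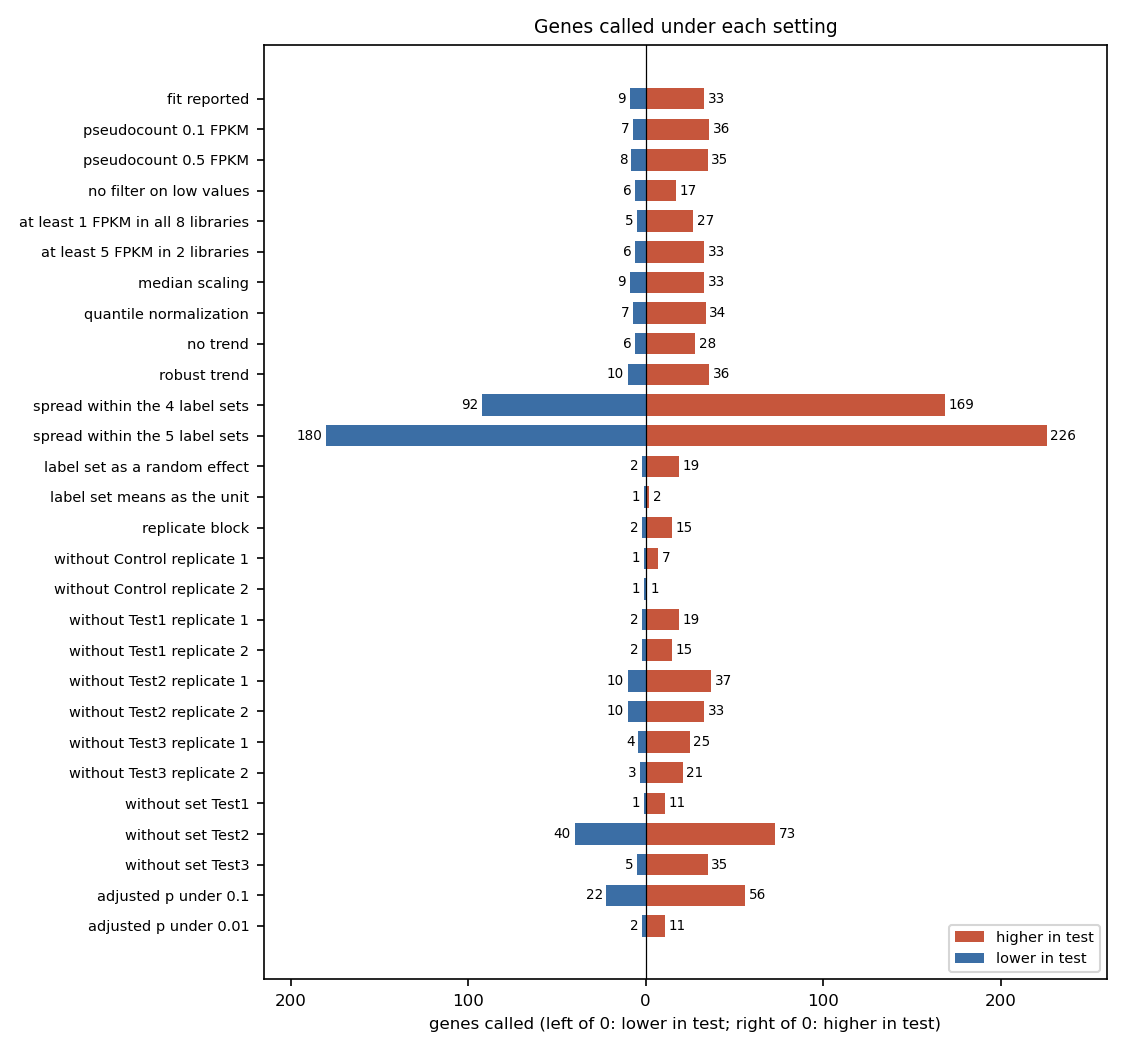
The bars give the number of genes called under each setting, right of 0 for genes higher in test and left of 0 for genes lower in test, with the fit reported at the top. The counts are 33 and 9 in the fit reported, 169 and 92 with the spread taken within the 4 sets, and 1 and 1 without Control-2.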

How the data were processed

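BGI prepared and sequenced the PyMt libraries (Illumina HiSeq). Alignment was to mm10 by Bowtie, per the methods and the submitters' processing notes. The authors deposited 1 table of FPKM, 1 column per library with 2 decimals. How alignments became FPKM is not given in the sources used here. FPKM hold no counts, so the count methods of the study (Poisson, Noiseq or EBSeq) could not be run. Columns were assigned to groups by the tags in the sample titles.

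The table held 17171 genes, 17113 of them matched by gene number to RefSeq GRCm38.p6, the source of coordinates, promoters and the miRNA. A spreadsheet had turned 24 symbols into dates, which were restored. A gene was kept where 2 or more of the 8 libraries had 1 FPKM or more, and log2(FPKM + 1) was fitted in R 4.3.3 by limma 3.58.1 (moderated with a trend, two-sided, Benjamini-Hochberg over 11477 genes, threshold 0.05). A fit with 4 groups (Control, Test1, Test2 and Test3) gave the set comparisons. The fit was tested on simulated data in which libraries varied independently, with no effect of the label set. Such data cannot show how the fit does where sets differ. Depth was estimated from the steps of low values in 5571 genes, with offsets to transcript length giving 10800000 to 16760000 reads.

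Genes, lists (27 with 711 genes, 665 in the table and 546 tested) and comparisons were chosen with earlier results of these data known, and gene lists are described by counts and medians without a test. The text names, among called genes whose groups did not overlap, the 20 largest rises, up to 12 of the largest falls (9 genes fell) and the 5 with the highest test level, up to 5 members of each list and its called members, and Il6, Il1a, Mmp13, Tnfrsf1a, Ifngr1, Adgre1, Pdcd1 and Ptprc (the last 3 not analysed here). Alternatives were other pseudocounts, filters, scalings and error models, and leaving out libraries and sets.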

Additional observations from a re-analysis of the deposited data

Results flagged for a closer look

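Among the called genes, 7 differed between test sets in the fit with the spread taken within sets, all by limma with Benjamini-Hochberg adjustment over 11477 genes. Test3 exceeded the mean of Test1 and Test2 by 0.97 for Il6 (adjusted p 0.0043), 1.15 for Irg1 (0.00138), 1.11 for Ccl7 (0.00594), 0.78 for Cxcl5 (0.0339), 0.67 for Csf2 (0.0432) and 0.52 for Sod2 (0.0473) on the log2 scale, and both Test3 libraries were above all 4 others in Il6, Irg1, Ccl7, Cxcl5 and Sod2 but not in Csf2. Lcn2 was lower in Test3, by -0.96 (0.0265). Test2 was below the mean of Test1 and Test3 by -1.31 for Il6 (0.00281), -1.14 for Csf2 (0.00959), -0.87 for Cxcl5 (0.0452), -0.82 for Ccl7 (0.0441) and -0.75 for Irg1 (0.0218), and Lcn2 was higher in Test2, by 1.21 (0.0211). Lcn2 thus ran against the other 6 genes in the Test3 comparison and against the other 5 in the Test2 comparison. The contrasts within these sets share libraries and are not separate evidence.

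In Tnfrsf9, which encodes the receptor 4-1BB, 1 test library stood apart from the other 5. Test3-2 was at 7.98 FPKM, while the others lay between 9.99 and 10.7 FPKM and the Control-tagged libraries were at 5.50 and 5.09 FPKM. The gap was 0.736 of the range of the test libraries. Chance gives a gap that passes the cutoff for this flag in about 1 of 20 groups.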

How the results depend on the processing

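The reported 42 calls (33 higher, 9 lower) became 23 (17 higher) with no filter on low values, 21 (19 and 2) with a random effect for the label set, 3 (2 and 1) with set means as the unit, 261 (169 and 92) with the spread taken within the 4 sets and 406 (226 and 180) within 5 sets, Blank included. They became 12 (11 and 1) without set Test1 and 113 (73 and 40) without set Test2, while without set Test3, and with at least 1 FPKM in all 8 libraries, 5 genes were lower. Leaving out 1 library gave 2 to 47 calls, 1 to 37 higher and 1 to 10 lower. A lone Control-tagged library was then assumed to vary like the test libraries. Thresholds of 0.1 and 0.01 gave 78 (56 and 22) and 13 (11 and 2). All 42 reported genes were also called with the spread taken within 4 or 5 sets and with a robust trend. Other pseudocounts, scalings and trend choices gave 34 to 46 calls. The cause of these moves was not tested, except that fewer libraries or more genes were tested by construction.

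The fit with the replicate number as a block called 17 genes (15 higher and 2 lower). The numbers share no animal or batch in the labels, and the deviations of same-numbered libraries correlated by -0.48 to 0.255 between sets, so not every library was most like its own number.

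Of the uncalled genes named in the text, 2 changed sign: Hmgcs1 was at 0.15 without set Test3, and Tnfrsf1a, which ran from -0.26 without Control-2 to 0.18 without Control-1, was at 0.01 without Test1-1, 0.07 without Test3-1, 0.00 without Test3-2 and 0.15 without set Test3. Depth is known only from a partial match, and what it limits was not tested.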
